A study of Arabidopsis thaliana with 6 samples.

Results

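The 10 loci described here are QQS and SADHU3-2, together with 8 genes of the DNA methylation machinery of Arabidopsis thaliana: MET1, VIM1, DDM1, CMT3, CMT2, DRM2, ROS1 and DME. They were taken by locus identifier from a table of 32678 genes, and all 10 had a row and passed the filter on low counts. QQS and SADHU3-2 were chosen because of their fold changes in this same comparison, 1 high and 1 low, so their differences are described and not tested. The 8 machinery genes were chosen by name. Poly(A) RNA was sequenced in bulk from root meristems cut by hand from seedlings at an age of 5 days, grown on medium with sucrose in long days. Of the 6 libraries, 3 carried the label Col0 (wild type) and the other 3 the label papl1-1papl2, for plants mutant at both loci and also written cog1-6cdf4 (alleles of COG1 and CDF4, which encode Dof-type transcription factors). The nature of the alleles and the number of plants per library are not given in the sources used here.

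In plants, cytosines are methylated in 3 sequence contexts by different enzymes. MET1, helped by VIM proteins that bind hemimethylated DNA, copies methylation at CG sites after replication, CMT3 and CMT2 act outside CG sites in heterochromatin marked by histone H3 lysine 9 methylation, and DRM2 is directed by small RNAs (RNA-directed DNA methylation, RdDM). DDM1 is a chromatin remodeller that opens heterochromatin to these enzymes, while ROS1 and DME are DNA glycosylases that remove methylated cytosine. QQS is a protein-coding gene known only from A. thaliana that affects starch and protein content, and its expression varies between individuals and accessions together with the methylation of its promoter. SADHU3-2 belongs to the Sadhu family of non-coding retroelements, and the annotation records that its allele is methylated and silenced in some natural accessions. Methylation itself was not measured in these libraries.

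The sequence just upstream of each of these loci is shown because that is the kind of region where methylation acts on them. QQS lies on chromosome 3 (chr3:12349047-12349933, plus strand, TAIR10.1) and SADHU3-2 on the same chromosome (chr3:14749400-14750294, minus strand, TAIR10.1). The 250 bases before each annotated start are given 5′ to 3′ on the strand of the locus, from the RefSeq copy of TAIR10.1, with each CG, the site that MET1 maintains, in capitals.
QQS (chr3:12348797-12349046, plus strand): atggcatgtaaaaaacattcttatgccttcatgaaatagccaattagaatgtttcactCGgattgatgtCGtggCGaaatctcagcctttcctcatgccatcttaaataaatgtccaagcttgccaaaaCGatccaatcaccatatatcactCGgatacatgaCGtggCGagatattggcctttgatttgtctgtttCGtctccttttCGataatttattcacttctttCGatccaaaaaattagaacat
SADHU3-2 (chr3:14750295-14750544, minus strand): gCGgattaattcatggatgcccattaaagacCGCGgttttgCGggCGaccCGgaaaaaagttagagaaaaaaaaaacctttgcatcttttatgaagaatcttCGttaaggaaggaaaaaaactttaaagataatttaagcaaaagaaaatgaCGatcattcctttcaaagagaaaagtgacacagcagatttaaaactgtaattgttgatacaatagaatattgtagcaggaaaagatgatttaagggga
The QQS window held 10 CG and the SADHU3-2 window 8, against a median of 5 over 32270 windows of the same length before protein-coding genes and pseudogenes. At least as many CG were present in 13.6% of all windows for QQS and in 24.2% for SADHU3-2, and 96.2% of windows held at least 1. Among the machinery genes, the ROS1 window held 11, a number reached in 10.14% of windows, and the CMT3 and VIM1 windows held 3 each. CAG or CTG, letter orders of the CHG context in which CMT3 acts (each is the other read on the opposite strand), occurred 2 times in the QQS window and 4 times in the SADHU3-2 window, against a median of 3. Within the QQS window the word tcactCGgat occurred at positions -197 and -103 relative to the start, 94 bases apart, and 29.3% of all windows held a repeated word at least as long. These are counts of letters, and the CG count reads the same on both strands. Only exact repeated words were searched for, so the 29.3% does not cover longer repeats with mismatches.

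The libraries held 17849704 to 20914576 counts each. Levels are given as CPM, the count of a gene relative to the library total after scaling with the TMM factors of edgeR, and a floor of 3 counts was 0.143 to 0.168 CPM, which covers counting error only. Of 17720 tested genes, 489 (2.76%) were called changed in the edgeR quasi-likelihood test at an adjusted p under 0.05. Both mutated loci had more counts in the libraries labelled papl1-1papl2, with log2 fold changes of 0.76 for COG1 (AT1G29160, adjusted p = 0.0137, edgeR) and 0.57 for CDF4 (AT2G34140, adjusted p = 0.0952, edgeR), so every direction below rests on the labels. All 9 root meristem markers had counts in every library, from the stem cell regulator WOX5 at 0.11 to 0.95 CPM to KN at 70.7 to 98.8 CPM. WOX5 was below the floor in replicate 1 labelled Col0, with 2 counts. Of the 9 markers 1, PLT3, was called by edgeR, at a log2 fold change of 0.32. The summed level of 11 root hair genes was 31.4 to 33.4 CPM in the libraries labelled Col0. It was 60.9, 40.2 and 12.9 CPM in replicates 1 to 3 labelled papl1-1papl2. Most of this sum came from 1 gene, RHD2, at 25.5 to 29.25 CPM in Col0 and 49.5, 30.4 and 10.4 CPM in papl1-1papl2. The sum of 3 shoot genes was 5.55 to 6.65 CPM over all libraries. None of these marker genes was at 0 in every library, and their part in the results was not tested. Replicate 3 labelled papl1-1papl2 stood apart: the chi-square of its counts, divided by the degrees of freedom, was 15.6 against replicate 1 and 9.31 against replicate 2, and 4.1 to 5.27 in the other pairs within a label. Without it, 1164 genes were called, and among them were 0 of the 8 machinery genes and 0 of the other pathway genes described here. The share of tested genes that this makes is not given, so nothing about these lists is drawn from the 0. In that setting the log2 fold change was 3.57 for QQS and -1.72 for SADHU3-2. In bulk tissue, fewer cells that express a gene and less RNA per cell cannot be told apart.

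QQS (AT3G30720, 3 merged exons) had a low level in the libraries labelled Col0 and a higher one in those labelled papl1-1papl2. Its level was 0.685, 1.34 and 0.905 CPM in replicates 1 to 3 labelled Col0, from 13, 27 and 19 counts. It was 11.5, 12.0 and 12.5 CPM in replicates 1 to 3 labelled papl1-1papl2, from 241, 216 and 224 counts. The labels did not overlap, and the values within papl1-1papl2 were close to each other (12.0 ± 0.492 CPM, SD, n = 3, against 0.976 ± 0.333 CPM, SD, n = 3). The fitted log2 fold change was 3.61, a 12.2-fold difference. Across these papl1-1papl2 libraries the root hair sum, mostly from RHD2, ran from 12.9 to 60.9 CPM and QQS from 11.5 to 12.5 CPM. The part of root hair cells, or of other cell types, in the QQS values was not tested. QQS overlaps no annotated gene, and none of its 542 exon stretches of 50 bases occurs elsewhere in the genome.

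SADHU3-2 (AT3G42658, annotated as a pseudogene of 1 exon) went the other way. Its level was 6.17, 5.31 and 7.29 CPM in replicates 1 to 3 labelled Col0 (6.25 ± 0.993 CPM, SD, n = 3), from 117, 107 and 153 counts. It was 2.11, 1.66 and 1.51 CPM in replicates 1 to 3 labelled papl1-1papl2 (1.76 ± 0.310 CPM, SD, n = 3), from 44, 30 and 27 counts. The labels did not overlap. The fitted log2 fold change was -1.82, a level 3.53-fold higher in Col0. The element overlaps no annotated gene, and none of its 846 stretches of 50 bases occurs elsewhere, although it is 83.5% identical to SADHU3-1 over 98.0% of its length.

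**Figure D1:**
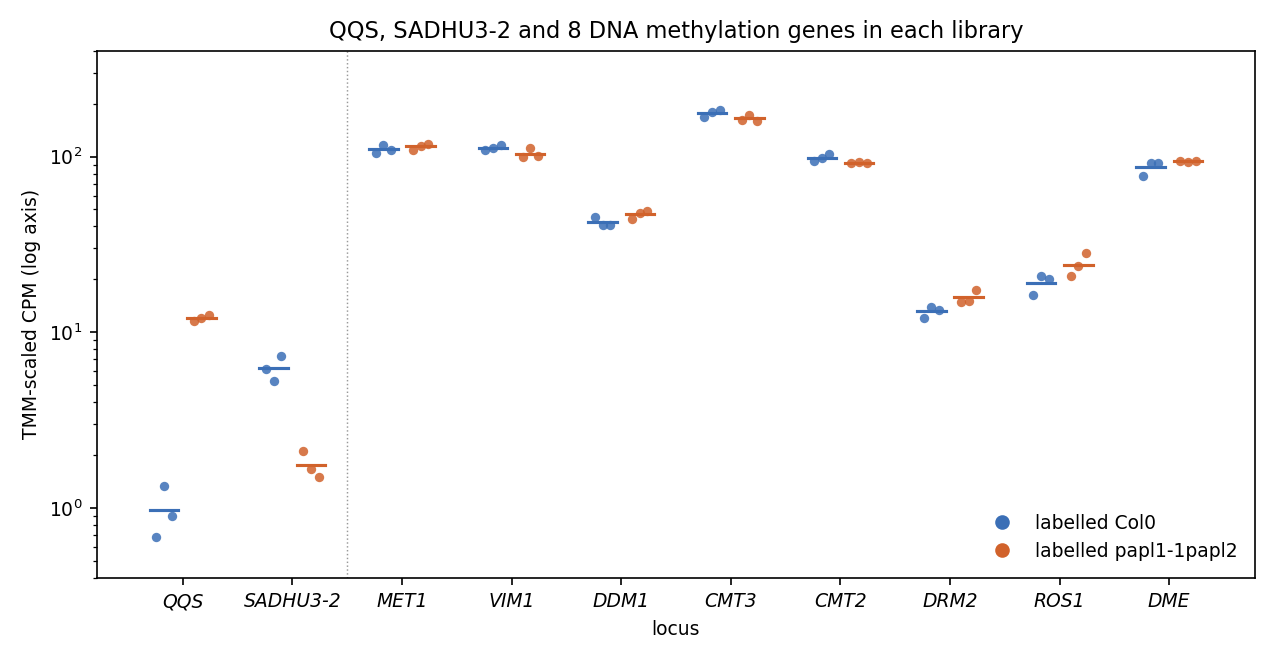
TMM-scaled CPM (log axis) of the 10 loci in each of the 6 libraries, with the mean of 3 libraries per label as a bar. QQS lies at 0.685 to 1.34 CPM in Col0 and at 11.5 to 12.5 CPM in papl1-1papl2, SADHU3-2 is lower in papl1-1papl2, and the points of the 8 machinery genes lie close together in both labels.

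The annotated loci around QQS had few or no counts. Of the 3 nearest annotated loci in the table on each side of QQS, 5 are pseudogenes and 1 is GDU6, a gene of the glutamine dumper family linked to amino acid export, and all 6 had 0 counts in every library. The nearest, AT3G30722, ends 340 bases before QQS. Within 100 kb on each side of QQS, a distance chosen after the values were seen, 38 of 41 other loci in the table were at 0 in all libraries. Neither of the 2 tested ones was called by edgeR, against 2.76% of all tested genes, so this says little about the region. The smaller adjusted p of these was 0.145, for ERD5, at a log2 fold change of 0.89.

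SADHU3-2 had neighbours with counts on one side. On its lower-coordinate side, the 3 nearest loci are pseudogenes with 0 counts in every library. On the other side, 985 bases away, AT3G42660 was at 63.3 ± 2.54 CPM in Col0 and 60.5 ± 3.60 CPM in papl1-1papl2 (SD, n = 3 for each label), with a log2 fold change of -0.07 (SE 0.07, adjusted p = 0.694, edgeR). The next gene, 5503 bases from SADHU3-2, is CLSY1 (AT3G42670), itself a part of the methylation machinery as a chromatin remodeller that helps RNA polymerase IV to make small RNAs. CLSY1 was at 9.34 ± 0.608 CPM in Col0 and 11.9 ± 1.58 CPM in papl1-1papl2 (SD, n = 3 for each label), and did not pass (log2 fold change 0.34, SE 0.12, adjusted p = 0.207, edgeR). Its 3 values in papl1-1papl2 lay above the 3 in Col0, the opposite order to that of SADHU3-2. Within 100 kb on each side, 35 of 45 other loci were at 0 in every library. None of the 4 tested ones was called by edgeR, against 2.76% of all tested genes, so this too says little. The lowest adjusted p among them was that of CLSY1.

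**Figure D2:**
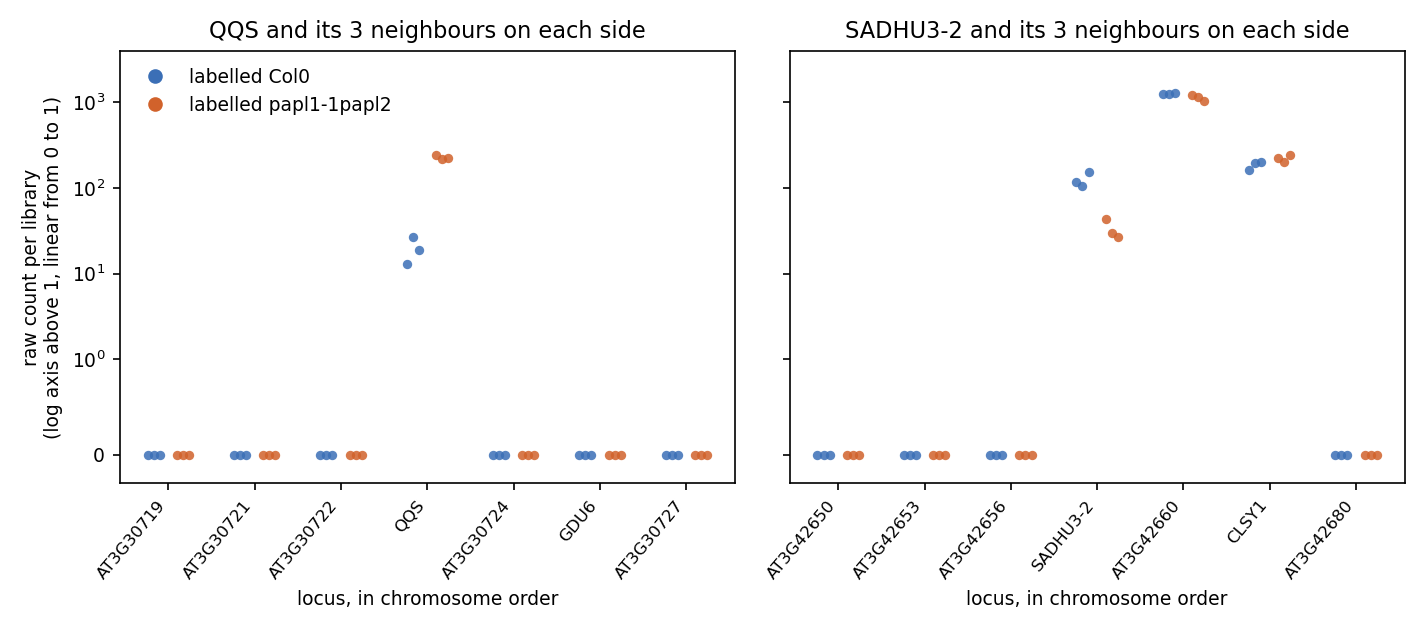
Raw counts per library of QQS (left) and SADHU3-2 (right) and of the 3 nearest loci of the table on each side, in chromosome order, on an axis that is linear from 0 to 1 and logarithmic above. All 6 neighbours of QQS and 4 of the 6 of SADHU3-2 sit at 0 in each library, while AT3G42660 and CLSY1 have counts in both labels.

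The other Sadhu elements were then examined, as a measure that was not used in choosing SADHU3-2. The annotation holds 16 elements, all in the table, of which 3 had 0 counts in every library and 4 had at most 3 counts in any library. Of the 8 tested elements other than SADHU3-2, 0 were called by edgeR, against 2.76% of all tested genes (2.23% higher and 0.525% lower in papl1-1papl2), 0 were called by DESeq2, against 3.73%, and 2 had an unadjusted p under 0.05 in edgeR, against 15.9%. Their log2 fold changes ran from -0.37 to 0.63 with a median of -0.09, where the median over all tested genes was 0.00.

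SADHU1-1 (AT2G10410) was the most abundant element and did not differ beyond its spread, at 117 ± 9.87 CPM in Col0 and 108 ± 16.0 CPM in papl1-1papl2 (SD, n = 3 for each label, adjusted p = 0.672, edgeR). The 2 elements below an unadjusted p of 0.05 were both lower in papl1-1papl2 without overlap between labels, where 9.8% of all tested genes were lower without overlap. SADHU4-1 (AT5G28913) was at 18.8 ± 0.894 CPM in Col0 and 15.7 ± 0.529 CPM in papl1-1papl2 (SD, n = 3 for each label), a log2 fold change of -0.26 (SE 0.08, adjusted p = 0.152, edgeR). SADHU10-1 (AT3G58865) was at 20.3 ± 1.25 and 15.7 ± 3.93 CPM (SD, n = 3 for each label), a log2 fold change of -0.37 (SE 0.16, adjusted p = 0.313, edgeR). SADHU1-2, SADHU1-3, SADHU2-1, SADHU5-1 and SADHU6-1 overlapped between labels. SADHU3-1, the element most like SADHU3-2 in sequence, had 2 counts in 1 papl1-1papl2 library and 0 in the other 5. Values of SADHU5-1, SADHU6-1 and SADHU1-3 are uncertain, since 60.2%, 29.99% and 8.34% of their stretches of 50 bases occur elsewhere in the genome, and SADHU10-1, SADHU1-1 and SADHU2-1 overlap other annotated genes.

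**Figure D3:**
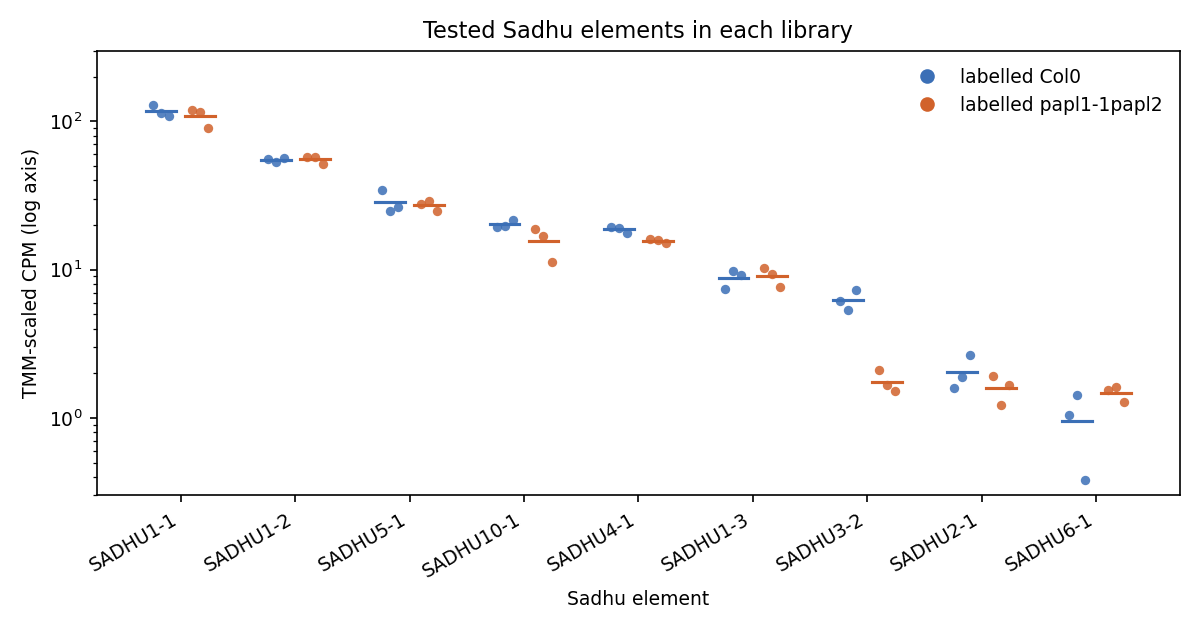
TMM-scaled CPM (log axis) of the 9 tested Sadhu elements in each library, ordered by their mean in Col0, with the mean of 3 libraries per label as a bar. The means of SADHU3-2, which was chosen for its difference, are 6.25 and 1.76 CPM, and the mean of SADHU1-2 is 55.0 CPM in Col0 and 55.6 CPM in papl1-1papl2.

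Of 3913 pseudogenes in the table other than SADHU3-2, 117 had enough counts for the edgeR test. Of these, 1 rose and 1 fell in the edgeR test, or 1.71% against the 2.76% of all tested genes, and DESeq2 called 4 of the 165 to which it gave an adjusted p, where its share over all genes was 3.73%. AT1G67626 rose, with a mean of 0.298 ± 0.0936 CPM in Col0 and 1.22 ± 0.351 CPM in papl1-1papl2 (SD, n = 3 libraries, log2 fold change 2.01, SE 0.40, adjusted p = 0.0323, edgeR). AT5G33382 fell, with a mean of 3.18 ± 0.477 CPM in Col0 and 0.964 ± 0.369 CPM in papl1-1papl2 (SD, n = 3 libraries, log2 fold change -1.70, SE 0.29, adjusted p = 0.0178, edgeR).

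Further loci known to be controlled by methylation had few or no counts. None of the 10 listed had enough counts for the edgeR test, and of the 4 given an adjusted p by DESeq2, 0 were called, against 3.73% of all genes with one. FWA, a homeobox gene silenced by promoter methylation outside the endosperm, had 2 to 4 counts per library in Col0 and 0 to 3 in papl1-1papl2, and SDC, an F-box gene silenced through DRM2 and CMT3, had at most 2. The retroelement EVADE, the DNA transposon ATMU1 and the flower gene SUP had 0 counts in every library, but 77.7% and 73.1% of the stretches of EVADE and ATMU1 occur elsewhere, so that their reads may not have been counted. MEA, an imprinted Polycomb gene, had the most, with 1 to 12 counts per library. Lower levels and small differences at these loci were not detectable at this depth. None of the 10 had more than 12 counts in a library of either label, and at such counts even a several-fold difference could not be tested. RMG1, another of the 10, had 4, 0 and 1 counts in replicates 1 to 3 labelled Col0. In papl1-1papl2 it had 4, 6 and 6, so the labels overlapped. No conclusion about a rise or fall at these loci is drawn. For EVADE and ATMU1 the limit on repeated stretches applies here too.

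The 8 machinery genes were next compared between the labels. None was called by edgeR, against 2.76% of all tested genes, and none by DESeq2, against 3.73% of all genes with an adjusted p there. With shares this low, 0 of 8 says little about these genes in particular. In edgeR 2 of the 8 (DRM2 and ROS1) had an unadjusted p under 0.05, against 15.9% of all tested genes. In 3 of the 8 the labels did not overlap, with DRM2 and DME higher and CMT2 lower in papl1-1papl2, against 21.5% of all tested genes (11.7% higher and 9.8% lower). Their log2 fold changes ran from -0.11 to 0.34 with a median of 0.08. The 95% interval of the fold change lay within 1.5-fold in either direction for 7 of the 8 and within 2-fold for all 8.

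MET1 (AT5G49160), the CG maintenance enzyme, was at 105, 116 and 109 CPM in replicates 1 to 3 labelled Col0 and at 109, 115 and 118 CPM in papl1-1papl2. The labels overlapped, with a log2 fold change of 0.05 (SE 0.06, 95% interval -0.08 to 0.19, adjusted p = 0.730, edgeR). VIM1 (AT1G57820), its hemimethylated-DNA-binding partner, was at 109, 112 and 116 CPM in Col0 and 99.4, 111 and 101 CPM in papl1-1papl2. The labels overlapped through replicate 2 of papl1-1papl2, and the log2 fold change was -0.11 (SE 0.06, 95% interval -0.25 to 0.03, adjusted p = 0.419, edgeR). DDM1 (AT5G66750) was at 45.5, 40.8 and 40.8 CPM in Col0 and 44.1, 47.4 and 49.0 CPM in papl1-1papl2. Replicate 1 of Col0 lay among the papl1-1papl2 values, and the log2 fold change was 0.14 (SE 0.07, 95% interval -0.02 to 0.31, adjusted p = 0.370, edgeR).

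Of the chromomethylases, CMT3 (AT1G69770) had the highest level per kb of the 8 genes. It was at 169, 179 and 184 CPM in Col0 and 162, 172 and 160 CPM in papl1-1papl2. The labels overlapped, with a log2 fold change of -0.11 (SE 0.06, 95% interval -0.23 to 0.02, adjusted p = 0.423, edgeR). CMT2 (AT4G19020) was at 94.0, 98.3 and 103 CPM in Col0 and at 91.4, 92.5 and 91.6 CPM in papl1-1papl2. All 3 papl1-1papl2 values lay below those of Col0, by a log2 fold change of -0.10 (SE 0.06, 95% interval -0.22 to 0.03, adjusted p = 0.434, edgeR), which did not pass. CMT3, VIM1 and MET1 all act on replicated DNA, and their log2 fold changes were -0.11, -0.11 and 0.05. The 95% interval of each included 0, so whether they share a direction is not resolved. The summed level of 12 S-phase genes, among them the MCM helicase subunits and PCNA, was 788 to 806 CPM in Col0. It was 722, 763 and 783 CPM in replicates 1 to 3 labelled papl1-1papl2. Of these 12 genes, 0 were called by edgeR, against 2.76% of all tested genes, and 0 by DESeq2, against 3.73%. In edgeR 1 (PCNA1) had an unadjusted p under 0.05, against 15.9%. For 3 (MCM5, PCNA1 and TSO2) the papl1-1papl2 values all lay below those of Col0, against 9.8%. The log2 fold change was negative for 11 of the 12, with a median of -0.08, and for 8711 of all 17720 tested genes. The part of this in the values of CMT3, VIM1 and MET1 was not tested.

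DRM2 (AT5G14620), the RdDM methyltransferase, had the lowest level per kb of the 4 methyltransferases. It was at 12.0, 13.9 and 13.4 CPM in Col0 and at 14.9, 15.1 and 17.3 CPM in papl1-1papl2. All papl1-1papl2 values lay above those of Col0, by a log2 fold change of 0.26 (SE 0.10, 95% interval 0.04 to 0.49, unadjusted p = 0.0271, adjusted p = 0.242, edgeR), which did not pass.

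Of the demethylases, ROS1 (AT2G36490), whose own transcription is known to respond to methylation of its promoter, had the highest log2 fold change of the 8 genes. Its level was 16.3, 20.98 and 20.1 CPM in Col0 and 20.8, 23.7 and 28.3 CPM in papl1-1papl2, so that replicate 1 of papl1-1papl2 lay among the Col0 values. The log2 fold change was 0.34 (SE 0.13, 95% interval 0.05 to 0.64, unadjusted p = 0.0281, adjusted p = 0.247, edgeR), which did not pass. Without replicate 3 labelled papl1-1papl2 it was 0.21 for ROS1 (adjusted p = 0.332, edgeR) and 0.19 for DRM2 (adjusted p = 0.343, edgeR). DME (AT5G04560), best known for its role in the central cell of the female gametophyte, was expressed in these root tips at 77.1, 92.1 and 91.6 CPM in Col0 and 94.1, 93.4 and 94.1 CPM in papl1-1papl2. Its labels did not overlap, with replicate 1 of Col0 the lowest and the other 5 libraries between 91.6 and 94.1 CPM, and the log2 fold change was 0.11 (SE 0.07, 95% interval -0.06 to 0.28, adjusted p = 0.520, edgeR). None of the 8 genes overlaps an annotated gene or shares a stretch of 50 bases with another place in the genome.

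**Figure D4:**
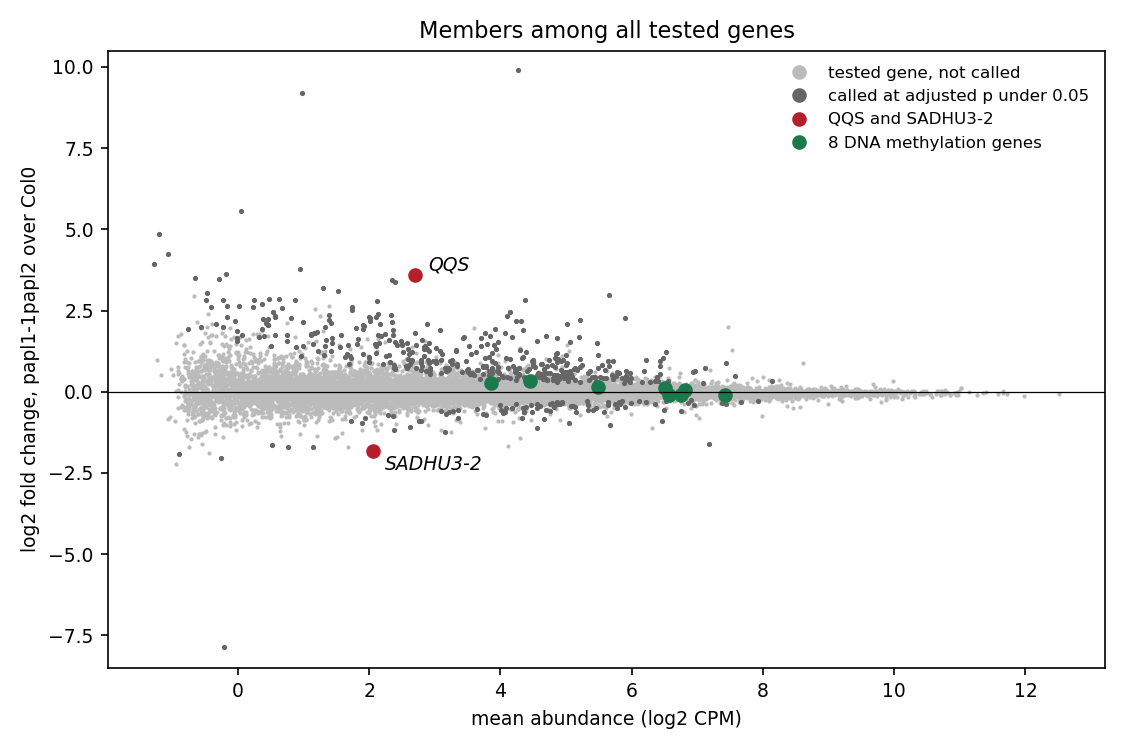
Log2 fold change (papl1-1papl2 over Col0) against mean abundance (log2 CPM) for all 17720 tested genes, with the called genes in dark grey, QQS and SADHU3-2 in red and the 8 machinery genes in green. QQS lies at 3.61 and SADHU3-2 at -1.82, the values they were chosen for, and the green points lie between -0.11 and 0.34.

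Levels per kilobase of exon allow the loci to be ordered. In Col0 the order from the highest was CMT3 (57.8 ± 2.62 CPM per kb), VIM1 (45.3 ± 1.49), CMT2 (22.8 ± 1.03), MET1 (21.7 ± 1.07), DDM1 (15.3 ± 0.988), DME (12.1 ± 1.19), SADHU3-2 (6.99 ± 1.11), DRM2 (5.63 ± 0.427), ROS1 (3.96 ± 0.517) and QQS (1.42 ± 0.484), all as mean CPM per kb ± SD with n = 3. The neighbouring pairs CMT2 and MET1, and SADHU3-2 and DRM2, overlapped between libraries in Col0, and the other neighbours did not. QQS, the lowest of the 10 in Col0, reached 17.5 ± 0.716 CPM per kb in papl1-1papl2 (SD, n = 3), which overlapped the level of DDM1 there (16.9 ± 0.917 CPM per kb, SD, n = 3). SADHU3-2 became the lowest of the 10 in papl1-1papl2, at 1.97 ± 0.346 CPM per kb (SD, n = 3).

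The rest of the pathway was followed through 52 further genes, of which 44 passed the filter for the edgeR test. In the edgeR test 0 were called, against 2.76% of all tested genes, and 3 had an unadjusted p under 0.05 (HDA6, CLSY1 and MAT4), against 15.9%. In 5 the labels did not overlap, with CLSY1, AGO4 and MOM1 higher and HDA6 and MAT4 lower in papl1-1papl2, against 21.5%. DESeq2 called 1, MAT4, against 3.73% of all genes with an adjusted p in that test. Log2 fold changes ran from -0.22 to 0.34 with a median of 0.03, and the 95% interval lay within 2-fold for 43 of the 44, the exception being VIM4.

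Of the 6 other methyltransferases, 1 passed the edgeR filter on counts: DRM3, a catalytically inactive relative of DRM2, at a log2 fold change of 0.11 (adjusted p = 0.582, edgeR). The MET1 relatives MET2A, MET2B and MET3 and the genes CMT1 and DRM1 had at most 10 counts in a library. Of 6 tested maintenance cofactors, the histone deacetylase HDA6 was lower without overlap between labels, at 62.1 to 63.2 CPM in Col0 and 56.1 to 57.6 CPM in papl1-1papl2 (log2 fold change -0.15, SE 0.05, adjusted p = 0.218, edgeR). HDA6 overlaps 1 gene on the same strand. VIM3 had a log2 fold change of -0.12 (adjusted p = 0.391, edgeR), close to that of VIM1, and 14.7% of its stretches of 50 bases occur elsewhere. VIM2 and VIM4 are close copies, with 67.2% and 76.6% of their stretches found elsewhere, so that reads could be split between them.

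The H3K9 methylation group, which feeds CMT3 and CMT2, had 4 tested genes and log2 fold changes of -0.13 to 0.15, with the smallest p-values for IBM1, a histone demethylase that keeps this mark off genes (adjusted p = 0.443, edgeR), and SUVH5, a histone methyltransferase (adjusted p = 0.544, edgeR). In the RNA polymerase IV and small RNA branch of RdDM, 9 genes were tested and the smallest p-values were those of CLSY1, given above, and DCL3, the dicer of this pathway (log2 fold change 0.13, adjusted p = 0.655, edgeR). CLSY2, a relative of CLSY1 below the filter on counts, had 8, 9 and 5 counts in Col0 and 0, 3 and 1 in papl1-1papl2. In the polymerase V and targeting branch, 13 genes were tested and log2 fold changes ran from -0.10 to 0.15. AGO4, which binds the small RNAs, was at 0.10 (adjusted p = 0.481, edgeR) and DRD1, a remodeller needed by polymerase V, at 0.15 (adjusted p = 0.543, edgeR).

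The demethylation group, with 8 tested genes, had log2 fold changes of -0.13 to 0.04. The smallest p-values there were those of MBD7, a methyl-binding protein of the ROS1 pathway (log2 fold change -0.13, adjusted p = 0.585, edgeR), and ZDP, a DNA phosphatase that works after ROS1 (log2 fold change -0.06, adjusted p = 0.755, edgeR). DML2, a relative of ROS1, was at 1.33 to 2.39 CPM over the 6 libraries, and DML3 had 0 counts in all of them.

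The methyl donor group held the smallest p-value of the pathway. MAT4, a synthase of S-adenosylmethionine, the methyl donor of all these enzymes, was at 1189, 1195 and 1215 CPM in Col0 and at 1061, 1061 and 973 CPM in papl1-1papl2. The labels did not overlap, and the log2 fold change was -0.22 (SE 0.05, 95% interval -0.34 to -0.10), with an adjusted p of 0.0752 in edgeR, which did not pass, and of 0.00527 in DESeq2, which did. With no filter on low counts it also passed in edgeR (adjusted p = 0.0451), where 2.75% of all genes were called. MAT4 overlaps 2 genes on the opposite strand, so its value is uncertain if strand was not used in counting. SAHH1, which removes the by-product of methylation, was at a log2 fold change of -0.05 (adjusted p = 0.724, edgeR) and MTHFD1, a folate enzyme upstream of the donor, at -0.07 (adjusted p = 0.624, edgeR).

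**Figure D5:**
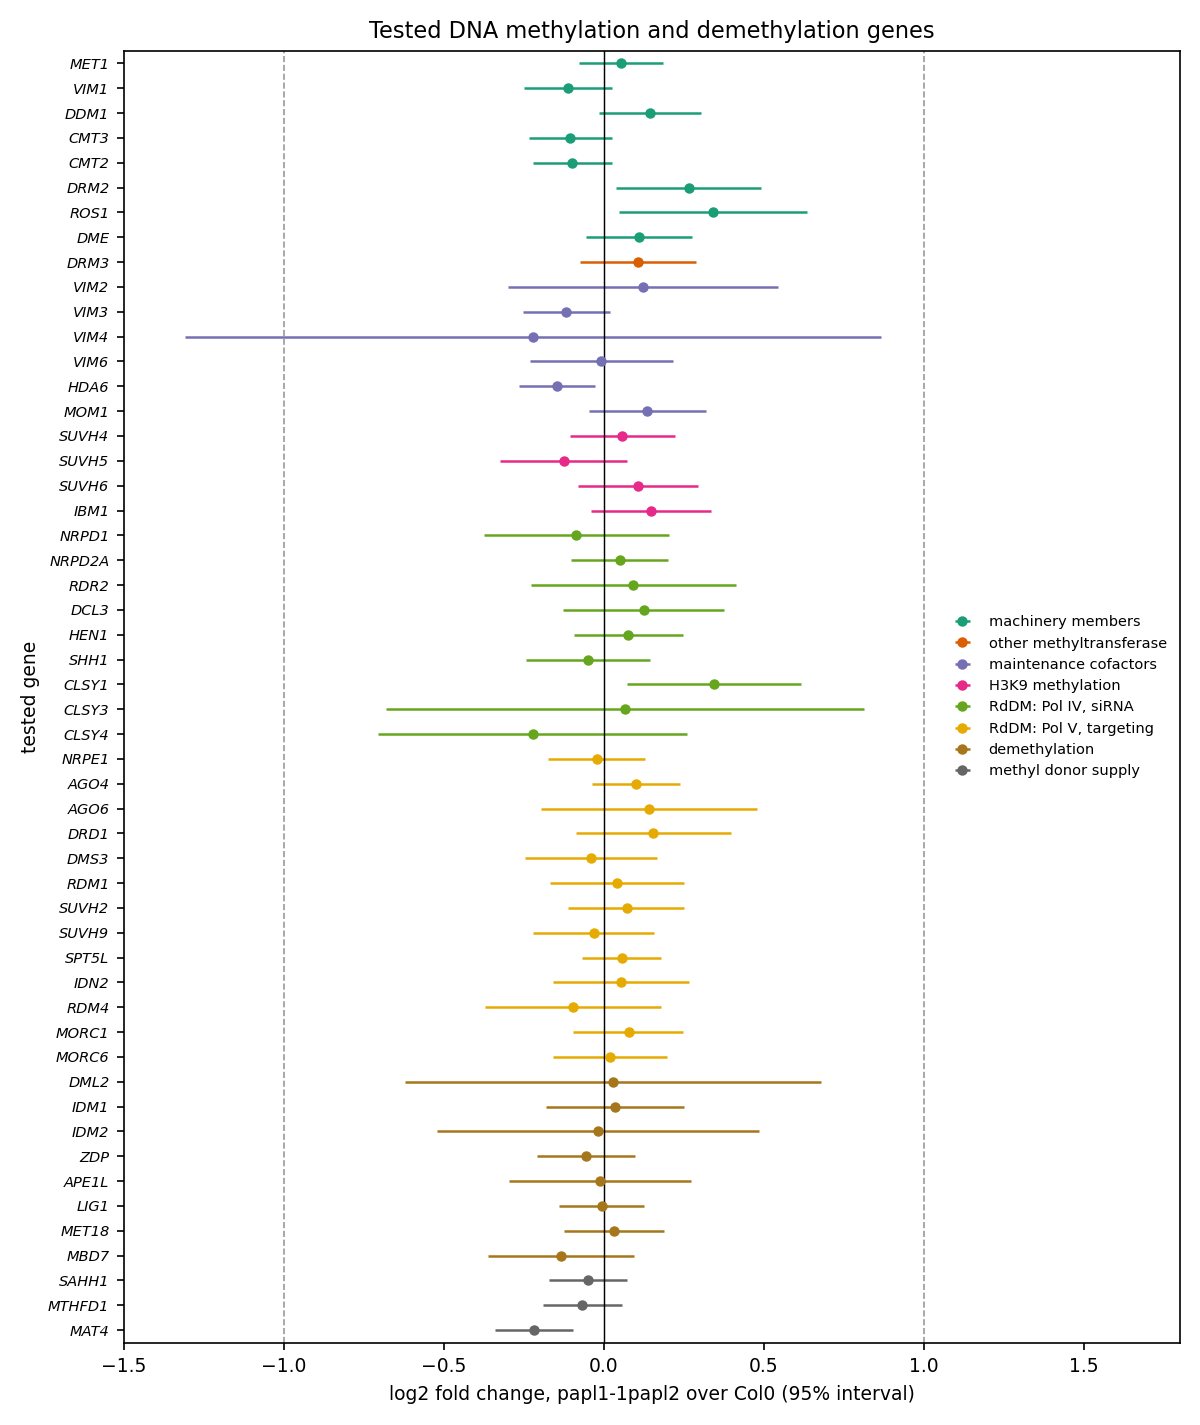
Log2 fold change (papl1-1papl2 over Col0) with its 95% interval for the 8 machinery genes and the 44 other tested pathway genes, coloured by role, with dashed lines at 2-fold. The points lie between -0.22 and 0.34, and the interval of VIM4 alone crosses a dashed line.

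Genes whose pattern over the 6 libraries was most like that of QQS or SADHU3-2 were named by the smallest root mean square difference of log2 CPM, each gene centred on its own mean, among 7280 genes with a symbol and at least 1 CPM. For QQS these were the transcription factor gene WRKY40 (difference 0.64), the calmodulin-like gene TCH3 (0.64) and NHL3 (0.67), a gene linked to pathogen responses. WRKY40 went from 1.09 ± 0.335 CPM in Col0 to 7.57 ± 2.03 CPM in papl1-1papl2 (SD, n = 3 for each label). All 3 overlap genes on the opposite strand. For SADHU3-2 they were the kinase gene MAPKKK19 (0.19), MRN1, the marneral synthase (0.35), and the MADS-box gene SVP (0.38). MAPKKK19 went from 2.42 ± 0.389 CPM in Col0 to 0.730 ± 0.158 CPM in papl1-1papl2 (SD, n = 3 for each label). It also overlaps a gene on the opposite strand, while MRN1 and SVP overlap none. The root mean square differences were larger for QQS than for SADHU3-2. All 6 genes were picked for their likeness to loci chosen for a difference between labels. Their own differences between labels follow from that choice and are no separate support.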

How the data were processed

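The deposited table gives whole-number read counts per gene for each library, which from their values the authors had not normalised. Per the submitters' processing notes, TopHat2, HTSeq, DESeq, DESeq2 and the build TAIR10 were used, with no versions or roles given. Use of strand and read length are not given in the sources used here, so values of overlapping or repeated loci are uncertain. Not all such loci are marked above. PLT3, KN, TSO2, DRM3, DCL3, DRD1, MTHFD1, FWA and SDC are among the others that overlap an annotated gene, TSO2 on the same strand. Columns were matched to samples by genotype and number in the titles, and 0 columns were unmatched. The labels' protocols state that the best 3 replicates per genotype were sequenced and do not say that they came from separate plants, so p-values measure the spread between these libraries.

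Tests used edgeR 4.0.16 under R 4.3.3, with filterByExpr (minimum count 10, minimum total 15), trimmed mean of M-values (TMM) scaling and the quasi-likelihood test with genotype as the only term, adjusted by Benjamini-Hochberg over 17720 genes. DESeq2 1.42.0 was an alternative. Replicates of a label differed by more than sampling noise. The method was tested on simulated data with 200 changed genes. It recovered 74.7% of changes at a log2 size of 1 and 97% at a log2 size of 2, and 10 of 181 calls were false. Smaller changes were not simulated. Intervals of 95% come from the fitted standard error and its degrees of freedom. Names, exon lengths and sequences came from RefSeq's TAIR10.1, used by locus identifier with its own coordinates. Where its symbols differ (COG1, CDF4, EVADE, ATMU1, ZDP and others), loci were assigned from general knowledge. The members, the gene lists and the rule for named genes were chosen with earlier results of these data known. The named genes are the members, the mutated loci, 3 neighbours on each side of QQS and SADHU3-2, called genes or else the 2 smallest p-values of each list, the Sadhu elements, called pseudogenes and the 3 most similar patterns.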

Additional observations from a re-analysis of the deposited data

How the results depend on the processing

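The number of machinery genes called was 0 under all 13 alternatives, which were DESeq2, DESeq2 size factors, upper-quartile factors, no filter, a mean of at least 5 CPM, the replicate block, an adjusted p under 0.01 and leaving out each of the 6 libraries. Few of all tested genes were called in these settings, so the repeated 0 adds little about the machinery genes. For the other pathway genes the count was 1 with DESeq2 and 1 with no filter on low counts, MAT4 in both, and 0 otherwise. Over all tested genes the count of 489 became 259 with the replicate block, of which 245 were among the 489, 140 at an adjusted p under 0.01, and 144 to 1164 when 1 library was left out, the lowest without replicate 1 labelled Col0 and the highest without replicate 3 labelled papl1-1papl2. It was 276, 155 and 173 without replicates 2 and 3 labelled Col0 and replicate 2 labelled papl1-1papl2. The cause was not tested. Same-numbered libraries did not deviate together (mean correlation -0.0587), and the block changed no other call given above for the members or the pathway. The log2 fold change was 3.42 to 3.89 for QQS and -1.98 to -1.70 for SADHU3-2, which the filter at 5 CPM removed. Of 275 refitted log2 fold changes of single members and pathway genes, none changed sign and 273 stayed on their side of the threshold or, for QQS and SADHU3-2, within the spread. The lowest adjusted p of ROS1 was 0.135 and of DRM2 0.239. Depth limits QQS in Col0 (13 to 27 counts) and the loci with fewer counts than could be tested.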
